A study of Drosophila melanogaster with 4 samples.

Results

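Genes that move calcium into the cytosol of gut stem cells, or that act on its release and return, were followed here with the coactivator that links calcium to transcription. The 7 genes, taken by symbol from the count table, were Piezo, TrpA1, RyR, SERCA, Stim, olf186-F and CRTC, out of 17806 named genes. Of these, 6 symbols matched exactly and CRTC is spelled Crtc in the table. All 7 passed the filter on low counts. They were compared in adult Drosophila melanogaster between 2 PABP IP libraries and 2 input libraries. The PABP IP libraries hold RNA bound to PABP, a protein that coats the poly(A) tails of mRNAs, recovered on FLAG beads from the powder of ultraviolet-irradiated whole flies, and the labels give their cell type as intestinal progenitor cells. The input libraries hold RNA of the whole extract taken before precipitation, with all cells as their labelled cell type. Each sample was made from 200 flies, 100 male and 100 female. No source used here gives the genotype, the age of the flies or the promoter that directs the FLAG-tagged protein. Nor do the labels tell separate fly collections from repeats of 1 collection within a group, and the p-values therefore cover the spread of these libraries only, which may be technical.

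Calcium signals in the fly midgut are known to set how fast intestinal stem cells divide. Calcium enters the cytosol from outside through channels such as the stretch-activated Piezo and the chemical and heat sensor TrpA1, and from the endoplasmic reticulum through the ryanodine receptor RyR and the IP3 receptor. The pump SERCA returns it to the reticulum, and when this store runs low the sensor Stim opens the plasma-membrane pore encoded by olf186-F, also named Orai. The calcium-dependent phosphatase calcineurin can free CRTC to enter the nucleus, where it serves CREB as a coactivator, while SIK kinases hold it in the cytoplasm.

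Libraries held 8987420 and 10761349 counts in PABP IP 1 and 2 and 2464629 and 3346231 in input 1 and 2, so values of low genes were least precise in the input. Levels are CPM, read counts brought to a common library total after TMM scaling, a method that takes most genes as unchanged. Of 9989 genes tested with edgeR's quasi-likelihood test, 3708 (37.1%) were called higher and 3873 (38.8%) lower in the PABP IP at a Benjamini-Hochberg adjusted p below 0.05. A call by itself therefore says little about a gene here, and sizes and ranks are given with each. The labelled cell type was checked on 10 tested progenitor markers, all of which were higher in the IP, with Sox21a at a log2 fold change of 9.73 and esg at 8.09. The marker spdo, which lies wholly inside another gene, had 0 counts in every library. Of 17 tested muscle markers 16 were lower, and their summed level was 3625 to 3882 CPM in the PABP IP and 9366 to 9512 CPM in the input; Tm1 (1.27) was the exception, and TpnC4, Mlp84B and Mf, each wholly inside another gene, had 0 counts in every library. Of 10 enterocyte genes 8 were lower, among them the near-identical amylase genes Amy-p and Amy-d at -3.06 and -3.23. The other 2, Myo31DF (0.48) and lab (2.61), were higher. The value of lab rests on 4 and 6 input counts, and the authors' deposited table gives -0.016 for Myo31DF. No control precipitation was analysed here, and in such bulk samples a difference in the number of cells of a type and in the RNA per cell cannot be told apart.

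Crtc stood far from the other 6 genes. It was raised 37.4-fold in the IP, Stim 2.57-fold, olf186-F 2.01-fold, TrpA1 1.90-fold and Piezo 1.28-fold, though Piezo lay below the input under 3 other scalings, whereas SERCA and RyR were 1.58-fold and 1.59-fold lower. In count, 5 of the 7 were called higher and 2 lower, against 37.1% and 38.8% of all tested genes. Scaled by library size, 2 of the 7 were called higher and 3 lower, against 22.1% and 63.5% of all genes, and with the authors' factors 3 were higher and 2 lower, against 27.5% and 53.9%. For each of the 7 both IP libraries lay on the same side of both input libraries, as they did for 88.6% of all tested genes. Their log2 fold changes ranged from -0.67 to 5.22, with a median of 0.92, where the median of all tested genes was -0.10 and their interquartile range ran between -1.06 and 1.02. Crtc and Stim lay above that range and the other 5 genes inside it.

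**Figure D1:**
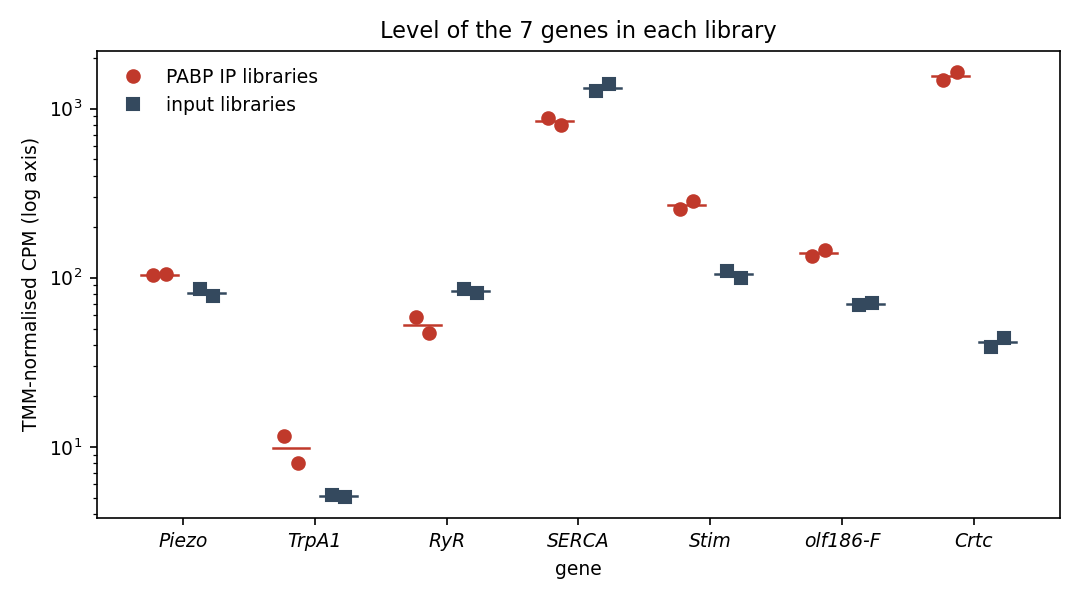
TMM-normalised CPM (log axis) of the 7 genes, with 1 point per library (circles, PABP IP; squares, input) and a line at each group's mean. Crtc lies at 1470 and 1646 CPM in the IP libraries and at 39.1 and 43.9 CPM in the input libraries, and RyR and SERCA are the genes whose IP points lie below the input points.

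Among the channels of the plasma membrane, Piezo, whose product opens when the membrane is stretched, had 104 and 105 CPM in IP libraries 1 and 2, against 85.5 and 77.7 CPM in input 1 and 2. The IP libraries differed by 0.585% from each other and the input libraries by 9.98%, and the groups did not overlap. The log2 fold change was 0.36 ± 0.11 (SE, n = 2 each; edgeR adjusted p = 0.00573), at the 61.9th percentile of all tested genes. This direction depended on the scaling of the libraries: the log2 fold change was -0.14 and uncalled with the authors' size factors. Piezo was called lower with upper-quartile factors (-0.25, edgeR adjusted p = 0.0361) and with library size alone (-0.49, edgeR adjusted p = 0.000283). The call of higher was also lost without input 2 (0.29). In the authors' deposited table, whose fit may have used libraries beyond these 4, Piezo stands at -0.14 (adjusted p = 0.472). Set against the median gene, which moves with each scaling, Piezo was higher by 0.45 under all 5 scalings.

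TrpA1, a channel of the TRP family that senses irritants, oxidants and heat, was the scarcest of the 7. Its counts were 79 and 63 in PABP IP 1 and 2 and 17 and 23 in input 1 and 2. These corresponded to 11.6 and 8.04 CPM in the IP, with exact 95% Poisson intervals of 9.16 to 14.4 and 6.18 to 10.3, against 5.19 and 5.08 CPM in the input, with intervals of 3.02 to 8.31 and 3.22 to 7.62. Neither group's libraries overlapped the other's, yet the counting intervals of PABP IP 2 and of both input libraries did. The ratio of summed counts was 1.89 with an exact 95% interval of 1.32 to 2.76, which covers counting error only. The fitted log2 fold change of 0.92 ± 0.30 (SE, n = 2 each; edgeR adjusted p = 0.00993) lay at the 73.4th percentile. It was not called without PABP IP 1 (0.67, adjusted p = 0.0668) or input 2 (0.91, adjusted p = 0.0504), with the authors' size factors (0.43), with upper-quartile factors (0.31) or with library size alone (0.0735). The authors' deposited table gives 0.43 with an adjusted p of 0.467.

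RyR and SERCA, which empty and refill the internal store, were both lower in the IP. RyR, the calcium release channel best known from muscle and neurons, had 58.7 and 47.0 CPM in IP libraries 1 and 2, against 86.1 and 81.7 CPM in input 1 and 2. All 4 of its ratios of an IP library to an input library lay between 0.546 and 0.719. Its log2 fold change was -0.67 ± 0.13 (SE, n = 2 each; edgeR adjusted p = 0.000135), and it was lower under all 13 alternatives, from -0.52 to -1.52. The authors' deposited table gives -1.17 with a standard error of 0.57 and an adjusted p of 0.0643.

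SERCA, the pump that loads the store, had 878 and 805 CPM in PABP IP 1 and 2, against 1272 and 1389 CPM in input 1 and 2. The groups did not overlap, and within each the libraries differed by about 9%, 9.09% in the IP and 9.18% in the input. The log2 fold change was -0.66 ± 0.12 (SE, n = 2 each; edgeR adjusted p = 0.000139), and it too was lower under all 13 alternatives, from -0.59 to -1.51. For SERCA the authors' deposited table gives -1.16 with a standard error of 0.12 and a DESeq2 adjusted p of 6.05e-21. RyR and SERCA lay side by side at the 34.7th and 34.8th percentiles, inside the interquartile range of all genes. Both are strongly used in muscle, whose 17 tested markers had a median of -1.93, among them the muscle actin gene Act79B at -3.10 and the paramyosin gene Prm at -2.16. Of 12 tested neuronal markers 5 were lower, a share near the 38.8% of all tested genes. None was higher, against 37.1% of all tested genes, and 7 were not called. Their median was -0.34, and VGlut (-2.34) and Gad1 (-1.26) were among the lower ones. The summed level of the list was 273 to 354 CPM in the IP and 373 to 441 CPM in the input. The marker elav, with 98.6% of its span inside other genes, had 1 and 0 counts in the IP and 1 and 1 in the input. VAChT, wholly inside another gene, had 0. The part of muscle or neuronal RNA in the values of RyR and SERCA was not tested.

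Both genes of store-operated entry were higher in the IP. Stim, the sensor of the reticulum's calcium content, had 255 and 282 CPM in IP libraries 1 and 2, against 109.9 and 100.0 CPM in input 1 and 2. Every IP library held at least 2.32 times the level of every input library. Its log2 fold change was 1.36 ± 0.11 (SE, n = 2 each; edgeR adjusted p = 3.63e-09), at the 80th percentile of all tested genes, and it was called higher under all 13 alternatives, from 0.51 to 1.46. Its partner olf186-F, the pore, had 134 and 146 CPM in the IP and 68.7 and 70.4 CPM in the input. The log2 fold change of olf186-F was 1.01 ± 0.11 (SE, n = 2 each; edgeR adjusted p = 1.69e-07), at the 74.7th percentile; the call was lost with library size alone (0.15, adjusted p = 0.198). The authors' deposited table gives 0.86 for Stim and 0.51 for olf186-F, with adjusted p of 3.16e-07 and 0.0217.

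Crtc, the CREB coactivator, had 10038 and 12889 counts in PABP IP 1 and 2 and 128 and 199 in input 1 and 2. In CPM these were 1470 and 1646 in the IP, against 39.1 and 43.9 in the input. The lowest ratio of an IP to an input library was 33.5 and the highest 42.1, while replicates differed by 12.0% and 12.4%. The log2 fold change was 5.22 ± 0.15 (SE, n = 2 each; edgeR adjusted p = 2.98e-14), above 99.4% of tested genes, and it stayed between 4.37 and 5.33 under all 13 alternatives. The authors' deposited table gives 4.73 with an adjusted p of 2.61e-92. The 10 tested progenitor markers ranged from 1.36 to 9.73, with a median of 7.11.

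**Figure D2:**
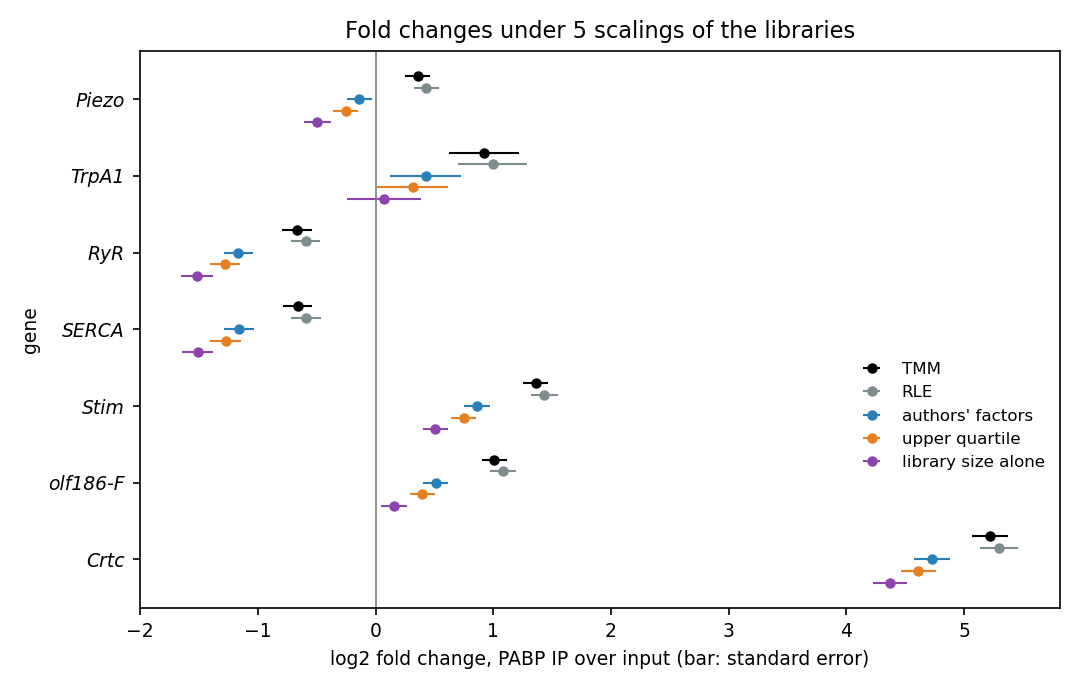
Log2 fold change of PABP IP over input for each of the 7 genes under 5 scalings of the libraries; bars are standard errors. The choice of scaling shifts all genes by nearly the same amount. This turns the sign of Piezo (0.36 with TMM, -0.49 with library size alone) and leaves those of the other genes as they are. Of those, TrpA1 comes nearest to 0, at 0.0735 with library size alone.

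A scaling factor adds nearly the same amount to every log2 fold change, so the distance of each gene from the median gene is set by the counts. Over the 5 scalings it was 5.32 for Crtc, 1.46 for Stim, 1.1 for olf186-F, 1.02 for TrpA1 and 0.45 for Piezo, and it was -0.57 to -0.56 for SERCA and -0.57 for RyR. The same construction fixes the order of the 7 genes, but not the place of 0 among them.

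Ratios of counts within a library need no scaling at all, and 9 pairs of genes with linked roles were compared in this way. With 2 libraries against 2 the smallest two-sided p an exact permutation test allows is 0.333, so these ratios are given as values. The sensor Stim and the pore olf186-F had a count ratio of 1.90 and 1.93 in IP libraries 1 and 2 against 1.60 and 1.42 in input 1 and 2. The groups did not overlap, and their mean difference was 0.35 on the log2 scale. SERCA and RyR kept the same range in both groups: SERCA had 14.9 and 17.1 times the counts of RyR in the IP and 14.8 and 17.0 times in the input. SERCA over Stim, the pump against the sensor of an empty store, was 3.44 and 2.85 in the IP and 11.6 and 13.9 in the input.

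For pumps, the gene with more counts was not the same in the 2 groups. SERCA had 0.694 and 0.534 times the counts of PMCA, the calcium pump of the plasma membrane, in the IP, but 2.38 and 3.14 times in the input. RyR had 0.332 and 0.270 times the counts of Itp-r83A, the IP3 receptor gene (RefSeq symbol Itpr), in the IP and 0.760 and 0.815 times in the input. Piezo had 0.408 and 0.370 times the counts of Stim in the IP and 0.778 and 0.777 times in the input. The ratios of Crtc differed most between the groups. Crtc had 4.45 and 4.66 times the counts of CrebB, the gene of its CREB partner, in the IP and 0.467 and 0.548 times in the input. Against Stim, Crtc had 5.77 and 5.83 times the counts in the IP and 0.356 and 0.439 times in the input. Piezo over TrpA1, at 8.99 and 13.0 in the IP and 16.5 and 15.3 in the input, varied most between the IP libraries.

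**Figure D3:**
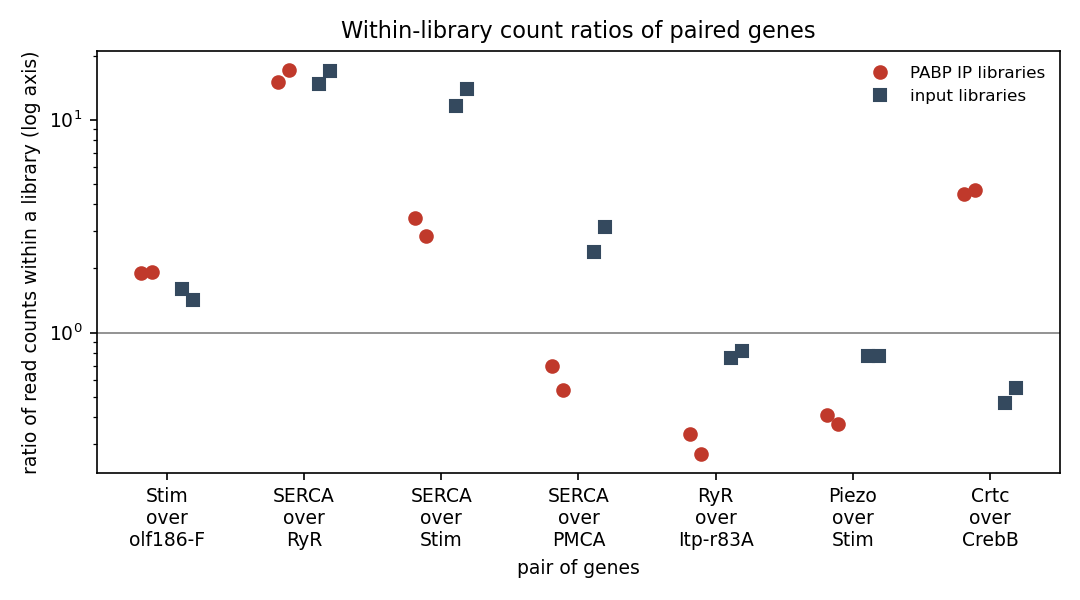
Ratio of read counts of gene pairs within each library (log axis), circles for PABP IP and squares for input. SERCA over RyR overlaps between the groups; the ratio of Crtc to CrebB lies above 4 in both IP libraries and below 1 in both input libraries.

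Levels of different genes were compared per kilobase of the gene length given in the count table. This length spans introns, so genes with long introns come out low. In the PABP IP the order was Crtc at 165 ± 13.2 CPM per kb (SD, n = 2), SERCA at 77.8 ± 4.79, Stim at 45.1 ± 3.25, olf186-F at 8.17 ± 0.499, Piezo at 3.85 ± 0.0159, RyR at 1.91 ± 0.299 and TrpA1 at 0.944 ± 0.24 CPM per kb. No neighbours in this order overlapped between libraries. In the input SERCA was highest at 123 ± 7.64 CPM per kb (SD, n = 2), ahead of Stim at 17.6 ± 1.17. Crtc at 4.41 ± 0.365 and olf186-F at 4.06 ± 0.0721 CPM per kb followed, with a gap smaller than the spread of Crtc. RyR at 3.02 ± 0.112 and Piezo at 3.01 ± 0.203 CPM per kb could not be ordered, and TrpA1 was lowest at 0.494 ± 0.00758.

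Piezo, Stim and RyR overlapped no other gene in the RefSeq gene table. SERCA encloses CG2812, and olf186-F encloses olf186-M and CG30323, all 3 with 0 counts in the 4 libraries; how reads of those stretches were assigned is not known. TrpA1 and Crtc each enclose a single noncoding feature of 74 and 143 bases.

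Genes whose 4 values lay closest to a member's were found by Euclidean distance of log2(CPM + 0.5) over the 4 libraries, among tested protein-coding genes with a name other than a CG number. Nearest to Crtc were alpha-Est9 (distance 0.38) and Vrp1 (0.44), with log2 fold changes of 5.01 and 4.90. Nearest to Stim were Pi3K92E and casp, to olf186-F aop and rad50, to Piezo cin and Vps50, and to TrpA1 SmydA-7 and Rpp30. SERCA was closest to the ribosomal protein genes RpL8 and RpL13A, with log2 fold changes of -0.67 and -0.65, and RyR to capu and Adk1. These distances describe only 2 groups of 2 libraries.

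Genes of calcium handling, with the 7 members among them, were read from 7 lists. In the list of calmodulin, calcineurin and calcium-dependent kinases and in the CREB arm most genes were higher in the IP. Differences between lists were not tested, and the shares in the TRP and extrusion lists were near the 37.1% and 38.8% of all tested genes. In the store list all 10 tested genes were called, 5 in each direction. In the CREB arm 12 of 13 genes were higher and 1 lower, with a median log2 fold change of 2.29 (2.17 without Crtc), against -0.10 for all tested genes; at least 10 were higher under each alternative. CrebA, a CREB-family factor of secretory cells, had 653 and 765 CPM in IP libraries 1 and 2, against 22.6 and 22.5 CPM in input 1 and 2 (log2 4.97 ± 0.15 SE, edgeR adjusted p = 2.98e-14). The CREB gene itself, CrebB, rose by 2.06, and nej, which encodes the acetyltransferase CBP that CREB recruits, by 3.09 on the log2 scale. The kinase genes Sik2 and Sik3, whose products keep CRTC out of the nucleus, rose by 2.29 and 1.37, and the regulatory PKA subunit gene Pka-R1 by 2.75. The exception was the second regulatory subunit gene, Pka-R2, at -0.29 (adjusted p = 0.0408), a call lost under 8 of the 13 alternatives.

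Calmodulin, calcineurin and the calcium-dependent kinases showed a median of 1.98, with 9 of 13 higher, 2 lower and 2 not called. Of all tested genes 37.1% were higher and 38.8% lower. In this list 9 were higher under each alternative, while 22.1% to 38.8% of all tested genes were higher over the 5 scalings. The calmodulin gene Cam rose by 2.75 on the log2 scale. The calcineurin catalytic subunit genes Pp2B-14D and CanA-14F rose by 2.87 and 2.39, and sra, a calcineurin regulator, by 3.02. NFAT, the fly gene most like mammalian NFAT5, rose by 1.98. The genes that fell were inaC, the protein kinase C of photoreceptors (-2.47), and the third calcineurin catalytic gene CanA1 (-0.82), which was not called in DESeq2 (-0.73) or without PABP IP 2 (-0.73) or input 2 (-0.57).

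Of the genes that produce IP3, Galphaq, the G protein subunit that activates phospholipase C, had 240 and 359 CPM in IP libraries 1 and 2, against 6.71 and 7.06 CPM in input 1 and 2. Its log2 fold change of 5.43 ± 0.22 (SE, n = 2 each; edgeR adjusted p = 7.14e-13) exceeded that of Crtc, though 67.7% of its span overlaps another gene. The phospholipase C-gamma gene sl rose by 1.84. The glutamate receptor gene mGluR (0.0421) and the phospholipase C genes norpA (-0.0518) and Plc21C (-0.23) were not called. With library size alone these 3 were called lower, as were 63.5% of all tested genes. The list's median, 0.04 with TMM, was then -0.81.

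In the store list 5 of 10 tested genes were higher and 5 lower, with a median of 0.20 that became -0.66 with library size alone. Without the members, 3 of 6 were higher and 3 lower, at the same median of 0.20. Beyond the members, Cnx99A, a calnexin of the reticulum, rose by 2.74, IP3K2, which phosphorylates IP3, by 1.96, and the IP3 receptor gene Itp-r83A by 0.72; the last was not called with upper-quartile factors (0.11) or the authors' factors (0.22) and was -0.13 with library size alone. Of its span 27.9% overlaps other genes. The junctophilin gene jp, which ties the reticulum to the plasma membrane in muscle and neurons, fell by 1.90, though 90.3% of its span overlaps another gene. The calreticulin gene Calr (-0.33) and IP3K1 (-0.56) were lower too, and neither was called in DESeq2; Calr also lost its call without input 1 (-0.30), and IP3K1 without PABP IP 2 (-0.44) or input 2 (-0.52). SclA, SclB and Cnx14D, and wtrw among the TRP genes, had 0 counts in all 4 libraries and lie wholly inside other genes.

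Of 15 tested TRP and mechanosensitive channel genes 7 were higher and 6 lower (median 0.07), close to the shares of all genes. Without Piezo and TrpA1, 5 of the other 13 were higher and 6 lower, and the median was -0.30. The rises of lowest p were those of pain, a TRPA channel gene related to TrpA1, which averaged 113 CPM in the IP and 21.8 CPM in the input (log2 2.37), and of Pzl, the Piezo-like gene, with 115 CPM in the IP and 22.5 CPM in the input (log2 2.36). The hearing channel gene iav had a fold change of similar size (2.40) that rests on 1 and 3 input counts. Tmem63 and Trpm rose by 0.58 and 0.57, and both changed sign with library size alone (-0.27 and -0.28) and upper-quartile factors (-0.0341 and -0.0373). The phototransduction channel genes trp and trpl fell by 2.66 and 1.96, rpk by 2.56 and Pkd2 by 1.49 on the log2 scale; for rpk 62.3% of the span overlaps another gene. When scaled by library size alone, 3 of 15 were higher and 10 lower, against 22.1% and 63.5% of all tested genes.

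Voltage-gated calcium channel genes were mostly not called, with 6 of 7 between -0.33 and 0.41, and the remaining gene, Ca-Ma2d, a muscle-specific auxiliary subunit, fell by 1.47. With RLE scaling 2 of them were called higher, against 38.8% of all tested genes. Called lower were 4 genes with the authors' factors, 6 with upper-quartile factors and 7 with library size alone. The shares of all tested genes called lower under these scalings were 53.9%, 57.3% and 63.5%. Of 10 genes of calcium extrusion and mitochondrial uptake 4 were higher and 4 lower (median 0.03), shares near those of all tested genes. Scaled by library size, 1 of these 10 was called higher and 8 lower (median -0.83), against 22.1% and 63.5% of all tested genes. Upper-quartile scaling and the authors' factors each gave 1 higher and 5 lower. The shares of all tested genes higher and lower were 25.8% and 57.3% with upper-quartile scaling and 27.5% and 53.9% with the authors' factors. PMCA rose by 1.51 ± 0.14 (SE, n = 2 each; edgeR adjusted p = 2.52e-08). Letm1 and EMRE, which act at the mitochondrial inner membrane, rose by 0.58 and 0.60, and both were below 0 with upper-quartile factors and with library size alone. The uniporter gene MCU fell by 1.67 with 60.8% of its span overlapped, and the exchanger genes zyd, CG1090 and Nckx30C by 1.42, 1.06 and 0.43, with Nckx30C not called in DESeq2 (-0.37), without PABP IP 1 (-0.22) or without input 1 (-0.28).

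**Figure D4:**
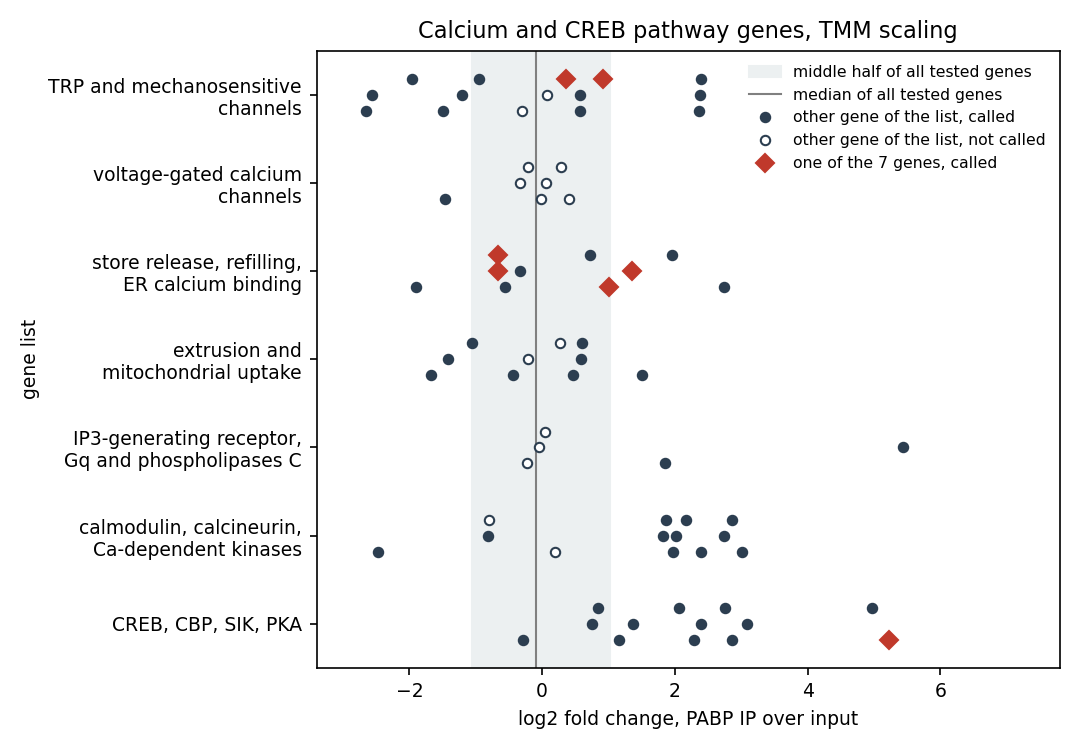
Log2 fold change of PABP IP over input for tested genes of 7 lists (TMM scaling). Diamonds are the 7 genes described first, filled symbols are called, and the shaded band is the interquartile range of all tested genes; points of the CREB, CBP, SIK and PKA list lie to the right except Pka-R2 (-0.29), while the voltage-gated channels lie near 0 except Ca-Ma2d (-1.47).

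Piezo and TrpA1 are also known from enteroendocrine cells, the hormone-secreting cells of the gut. Of 12 tested enteroendocrine markers 3 were higher, pros (1.01), Ptx1 (1.37) and CCHa1 (1.07), 3 were lower, amon (-1.61), Mip (-1.97) and CCHa2 (-0.91), and 6 were not called. Their median was -0.06, and both shares lay below the 37.1% and 38.8% of all tested genes. Under library-size scaling pros (0.16) lost its call. The call of CCHa1 was lost under 8 of the 13 alternatives, that of CCHa2 without input 2 (-0.58) and that of Mip in DESeq2 (-1.98) and without input 1 (-1.87). The summed level of the 13 markers was 203 to 215 CPM in the IP and 139 to 147 CPM in the input, a gap that came from pros: the other 12 summed to 73.8 to 76.9 CPM in the IP and 75.4 to 76.4 CPM in the input. The marker sc, which lies wholly inside another gene, was at 0 in every library. The part of such cells in the values of Piezo and TrpA1 was not tested.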

How the data were processed

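The authors deposited raw whole-number counts of reads for each gene, with a gene length in bases per the file headers; STAR 2.7.3a, Subread 2.0.0 (featureCounts), cutadapt 2.9, SAMtools 1.10 and DESeq2 appear in the submitters' processing notes. No source used here gives the genome build or strand setting. The authors also deposited a DESeq2 table that per the file headers holds p-values, adjusted p-values, log2 fold changes with their errors and a Wald statistic (a score); its library columns are a normalized signal, the deposited counts divided by size factors of 3.22 and 3.68 (PABP IP) or 1.09 and 1.51 (input). Its base mean is not the mean of these columns (361 against 233 for Piezo, and 4.67 for wtrw, at 0 in all 4 columns). Their fit may therefore have held further libraries, in which case its fold changes, errors and adjusted p-values do not rest on these 4 alone.

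Counts were tested on the whole table with edgeR 4.0.16 (R 4.3.3), using TMM, glmQLFit and a two-sided glmQLFTest after filterByExpr (minimum count 10), with Benjamini-Hochberg adjustment at 0.05; each SE is the log2 fold change divided by the root of F. A row with no gene name (at most 0.000418% of a library) was left out; the TRP gene nan was not analysed here. Names and overlaps came from the RefSeq gene table of Release 6 plus ISO1 MT. The fit was tested on simulated counts in which few genes changed, up or down at random, so that test cannot speak to the choice of scaling. Other settings were RLE, upper-quartile, library-size and the authors' scaling, 2 other filters, DESeq2 1.42.0, limma-voom (limma 3.58.1), a replicate block and leaving out each library. Members, lists and tests were chosen with earlier results of these data known. Named genes were the members, up to 4 per list and direction of lowest p, 6 upstream or downstream genes, 2 per marker list and 2 nearest per member; CCHa1, CCHa2, Mip, amon, elav, iav, Tm1, IP3K1, norpA, Plc21C and the exceptions within lists were added after their values were seen. A gene that the rule names is not reported here.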

Additional observations from a re-analysis of the deposited data

How the results depend on the processing

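Crtc, Stim, SERCA and RyR kept their direction and call under all 13 alternatives. Piezo was called lower with library size alone (-0.49) and upper-quartile factors (-0.25), and was below 0 but uncalled with the authors' factors (-0.14). It was also uncalled without input 2 (0.29), and leaving out 1 library gave 0.29 to 0.42. TrpA1 was uncalled with the same scalings (0.0735, 0.31 and 0.43), without PABP IP 1 (0.67) and without input 2 (0.91). Left-out libraries gave 0.67 to 1.16 for TrpA1. The call of olf186-F was lost with library size alone (0.15). That scaling also moved all calls to 2209 higher and 6347 lower, with 25.8% of calls higher against 48.9% with TMM; the share was 31.0% with upper-quartile and 33.8% with the authors' factors, where the median of all genes moved from -0.10 to -0.71 and -0.59, and to -0.95 with library size alone. Each scaling sets its own zero point; other causes were not tested.

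Outside the marker lists, signs turned with library size alone for Itp-r83A (-0.13), Tmem63 (-0.27), Trpm (-0.28), Letm1 (-0.27), EMRE (-0.26), mGluR (-0.81), cin (-0.52), Vps50 (-0.41) and SmydA-7 (-0.23). With upper-quartile factors they turned for Tmem63 (-0.0341), Trpm (-0.0373), Letm1 (-0.0296), EMRE (-0.0142), mGluR (-0.57), cin (-0.28) and Vps50 (-0.17), and with the authors' factors for mGluR (-0.45), cin (-0.16) and Vps50 (-0.0587). The uncalled norpA turned with RLE (0.0220), no filter (0.0167), DESeq2 (0.0197) and in leaving out 1 library (-0.194 to 0.0953), as did the uncalled mGluR (-0.0970 to 0.178). The voltage-gated list, with 1 call, had 3 with RLE or no filter, 2 with the CPM filter, 6 with upper-quartile factors, 7 by library size, 4 by the authors' factors and 1 to 3 for left-out libraries. The IP3 list, with 2 calls, had 5, 5 and 4 under upper-quartile, library-size and the authors' scaling. Of all tested genes 57.3%, 63.5% and 53.9% were called lower under these, against 38.8% with TMM.

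The fit with the replicate number as a block called 7477 genes against 7581, and its log2 fold changes were 5.23 for Crtc and 0.36 for Piezo; it changed no member's call and, among the other named genes, lost that of Pka-R2 (-0.29). The numbers are not stated to pair samples, and deviations of same-numbered libraries correlated at -0.096. Depth limits TrpA1 most, with 17 and 23 input counts.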
